A study of Rattus norvegicus with 8 samples.

Results

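The calmodulin and calcium/calmodulin-dependent protein kinase (CaM kinase) genes of the rat hypothalamus were described by their RNA 3′ ends. The list held 8 genes, Calm2, Calm3, Camk2a, Camk2b, Camk2d, Camk2g, Camk4 and Camkk2, and its members were the rows whose gene symbol was identical to one of these names. Sites were found for 7 of the 8 genes, with 37 of the 98356 alternative polyadenylation (APA) sites and 7 of the 18003 gene symbols in the data. No row carried the symbol Camk2g, which was not analysed here.

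Tissue came from adult male Long-Evans rats, and all 8 libraries were made from hypothalamus (described as mediobasal in the study design). The cannabis group, 4 rats with replicate numbers 1, 2, 3 and 5, inhaled vapor of cannabis plant matter in a single brief session, and the air controls, 4 rats numbered 1, 2, 3 and 4, sat in the same kind of chamber with an unfilled vaporizer. Tissue was taken about an hour after the session. The libraries were made by whole transcriptome termini site sequencing (WTTS-Seq), in which a read marks the 3′ end of a polyadenylated RNA. A transcript gives 1 end whatever its length, so levels of different genes can be set side by side without a length correction.

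Calmodulin is the small calcium sensor found in every eukaryotic cell, and in mammals several separate genes encode the same calmodulin protein. Calcium-loaded calmodulin opens the autoinhibited catalytic domain of the CaM kinases. CaM kinase II is a large multimer mixed from subunits made by the Camk2 genes, and it is abundant at synapses, where it can stay active after calcium falls because it phosphorylates itself. CaM kinase IV, made by Camk4, acts mainly in the nucleus on factors such as CREB and is switched on by an upstream kinase, for which Camkk2 is one of the genes. In the hypothalamus Camkk2 is known as an upstream kinase of AMPK in neurons that drive feeding. Many of these genes end their RNAs at alternative sites. Where such sites lie in the 3′ untranslated region, their choice sets how much of that sequence the RNA carries. The paper also classed changed sites as exonic, intronic or antisense, so an end need not lie in that region.

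The comparison asked whether a single exposure to cannabis vapor went with a change in the level of these transcripts or in the choice of their 3′ ends. Values are normalized counts, which are reads divided by the size factor of the library. Each library had from 1159811 reads (air control 4) to 3706778 reads (cannabis 2) on sites, and 1 read was worth 0.664 to 1.99 normalized counts. The members took 1324 to 3969 reads per library, or 0.0832% to 0.129% of the reads on sites. Air control 4 and cannabis 1 had the largest shares of sites without a read, 26.1% and 17.0%. Intervals on shares cover counting error only. Exact permutation p-values compare group means of untransformed values, whereas log2 fold changes compare means on the log2 scale. They therefore do not test the same quantity.

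Calm3 was by far the most abundant of the 7 genes, and its total did not differ detectably between the groups. Its total was 2262, 1359, 1173 and 2052 normalized counts in air controls 1 to 4 and 2363, 1637, 1503 and 1367 in cannabis 1, 2, 3 and 5. High and low libraries occurred in both groups, and the ranges overlapped almost entirely. The group means were 1711 ± 527 and 1717 ± 444 (SD, n = 4 each). The limma log2 fold change of the total, cannabis minus air, was 0.03 (SE 0.25, 95% confidence interval −0.52 to 0.57), and the exact two-sided permutation test gave p = 0.971. The mean Calm3 total was at percentile 99.4 of all gene symbols, with 100 symbols above it.

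Calm2, which encodes the same protein as Calm3, had a single site and a much lower level. It had 100.9, 102, 149 and 87.4 normalized counts in air controls 1 to 4 and 99.3, 248, 241 and 144 in cannabis 1, 2, 3 and 5. Cannabis 2 and 3 lay above every control, whereas cannabis 1 lay below 3 of the 4 controls and cannabis 5 below air control 3, so the groups overlapped. The means were 110 ± 27.0 and 183 ± 73.2 (SD, n = 4 each), a log2 fold change of 0.67 (SE 0.30, 95% confidence interval 0.01 to 1.32). limma gave P = 0.0457 and an adjusted P of 0.999 for this total, and the exact two-sided permutation test gave p = 0.20. Fitted among the sites, the same values gave a limma P of 0.068, with a 95% confidence interval of −0.05 to 1.39. Calm2 therefore did not pass P under 0.01 in limma, a threshold that the study applied to single sites with DESeq2. Without cannabis 1, the log2 fold change was 0.93 and the total passed that threshold, with an adjusted P of 0.914 in limma. In that setting 90 of all 18003 symbols passed, against 50 with all 8 libraries.

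**Figure D1:**
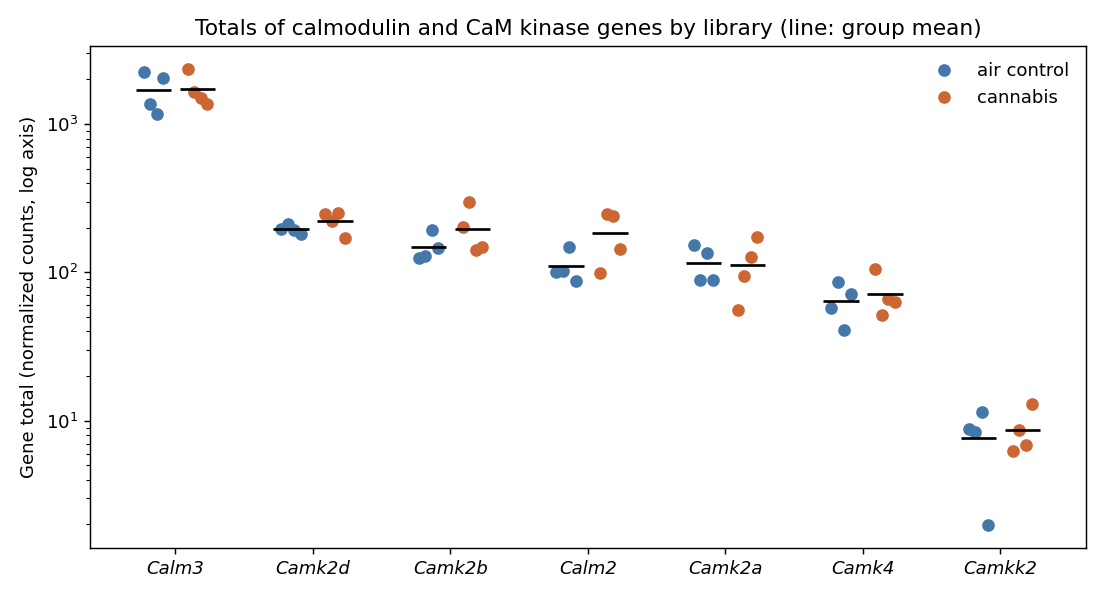
Gene totals in normalized counts (log axis) for each of the 7 genes. Blue points are the 4 air controls, orange points the 4 cannabis libraries, and black lines the group means. The points of both groups overlap for every gene, and Calm3 lies highest and Camkk2 lowest in every library.

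The CaM kinase II genes had totals of similar size, in the order Camk2d, Camk2b, Camk2a. For Camk2d, which encodes the delta subunit, the air controls had 195, 211, 194 and 181 normalized counts and cannabis 1, 2, 3 and 5 had 250, 223, 251 and 171. Of the cannabis libraries, 3 lay above all controls and cannabis 5 lay below them all. The means were 195 ± 12.3 and 224 ± 37.2 (SD, n = 4 each), with a log2 fold change of 0.18 (SE 0.20, 95% confidence interval −0.25 to 0.61, exact permutation p = 0.20). The 4 controls varied by a coefficient of variation of 6.28%, no more than the 7.51% that counting alone gives, whereas the cannabis libraries varied by 16.7% against 6.37% from counting.

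Camk2b, the beta subunit that ties the kinase to actin, had 125, 128, 195 and 147 normalized counts in air controls 1 to 4 and 204, 298, 142 and 147 in cannabis 1, 2, 3 and 5. Only cannabis 1 and 2 lay above all controls. The log2 fold change was 0.36 (SE 0.26, 95% confidence interval −0.21 to 0.93, exact permutation p = 0.20). Camk2a, the alpha subunit typical of excitatory forebrain neurons, had 152, 88.6, 135 and 89.4 normalized counts in the controls and 55.9, 95, 127 and 172 in cannabis 1, 2, 3 and 5. The lowest and the highest Camk2a libraries were both cannabis libraries, and the log2 fold change was −0.12 (SE 0.33, 95% confidence interval −0.83 to 0.59, exact permutation p = 0.914). Summed over the 3 genes, CaM kinase II ends came to 460 ± 48.7 normalized counts in the controls and 534 ± 55.6 in the cannabis group (SD, n = 4 each; exact two-sided permutation test, p = 0.114).

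Both genes of the CaM kinase IV cascade were lower still. Camk4 had 57.8, 86.2, 41.0 and 71.5 normalized counts in the controls and 105.6, 51.8, 65.9 and 63.0 in cannabis 1, 2, 3 and 5. Cannabis 1 was the only cannabis library outside the range of the controls, and the log2 fold change was 0.16 (SE 0.30, 95% confidence interval −0.48 to 0.80, exact permutation p = 0.657). Camkk2 had 8.77, 8.38, 11.4 and 1.99 normalized counts in the controls and 6.21, 8.64, 6.89 and 13.1 in cannabis 1, 2, 3 and 5. Only 79 reads in all fell on Camkk2, with a single read in air control 4, and its log2 fold change of 0.30 (SE 0.50, exact permutation p = 0.771) had a 95% confidence interval from −0.79 to 1.38. On the scale of the normalized count plus 1, this interval ran from 0.578-fold to 2.61-fold, so a change of Camkk2 within it was not excluded.

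Of the 7 totals, 0 passed P under 0.01, against 0.278% of all gene symbols, and 1 (Calm2) had P under 0.05, against 2.41%. None of the 7 passed an adjusted P under 0.1, against 0.00555% of all symbols, and the adjusted P was 0.999 for each. No member total had groups that did not overlap, against 1.98% of all symbols. The log2 fold change was positive for 6 totals and negative for 1, with a median of 0.18 beside 0.05 over all symbols. edgeR and DESeq2 on the recovered reads also called 0 totals at P under 0.01, and each had 1 at P under 0.05, again Calm2.

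The order of the mean totals was tested with an exact sign-flip test of the log2 ratio of neighbours within each library (n = 8, smallest possible p 0.0078). Calm3 exceeded Camk2d in 8 of 8 libraries (p = 0.0078, exact) and Camk4 exceeded Camkk2 in 8 of 8 (p = 0.0078, exact). The genes between them were not separated from their neighbours. Camk2d was above Camk2b in 6 of 8 libraries (p = 0.078, exact) and Camk2b above Calm2 in 7 of 8 (p = 0.188, exact). Calm2 was above Camk2a in 5 of 8 (p = 0.203, exact) and Camk2a above Camk4 in 7 of 8 (p = 0.055, exact).

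Sites are named here by their rank in the gene, site 1 being the one with the highest mean level over the 8 libraries. The values carry no coordinates, so no statement is made on where a site lies in its gene. Camk2d had 13 sites, which 3.72% of all genes reached or exceeded, Camk2a had 6, Calm3, Camk2b and Camk4 had 5 each, Camkk2 had 2 and Calm2 had 1. The median over all genes with more than 1 site was 3. Many of the member sites were thinly read. Of the 37, 18 had a mean under 10 normalized counts, and 14 had no read in at least 1 library. Over all 98356 sites, of which 64313 carried a gene symbol, 77.5% had a mean under 10. All 5 sites of Calm3 had a mean of at least 10, but 8 of the 13 Camk2d sites and 4 of the 6 Camk2a sites did not.

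Calm3 used 1 main end whose share varied widely between libraries of both groups. Site 1 held 51.1%, 77.3%, 91.7% and 92.2% of the gene's reads in air controls 1 to 4 and 90.9%, 76.5%, 57.2% and 89.3% in cannabis 1, 2, 3 and 5. Air control 1 and cannabis 3 were low and 4 libraries were near 90%, in both groups alike. These differences lie far outside counting error, since the 95% Wilson interval is 49.3% to 52.9% in air control 1 and 90.4% to 93.6% in air control 4. The group means were 78.1% ± 19.3 and 78.5% ± 15.6 (SD, n = 4 each; exact two-sided permutation test, p = 1.00).

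The remainder of Calm3 lay mostly at site 2. Its level was 804, 164, 51.0 and 109 normalized counts in the controls and 120, 215, 432 and 82.2 in cannabis 1, 2, 3 and 5, a 15.8-fold range over libraries. Site 1 itself ranged only 2.50-fold. Site 3 was highest in the same control, with 180 normalized counts in air control 1, and in cannabis 2 and 3, with 112 and 114, against 9.93 in air control 4. The log2 fold changes of the 3 sites were 0.05 (SE 0.26), 0.08 (SE 0.59) and 0.74 (SE 0.67). Exact permutation tests of the difference of mean normalized counts gave p of 0.743, 0.857 and 0.886. Those means were 282 in the controls and 212 in the cannabis group for site 2, opposite in direction to its log2 fold change. For site 3 they were 64.3 and 72.1. Without air control 1, in which site 3 was highest, the log2 fold change of site 3 was 1.52, past P under 0.05 and not P under 0.01 in limma, with an adjusted P of 1.00. Of all 98356 sites, 2312 had P under 0.05 in this setting. The total of Calm3 varied by 30.8% in the controls and 25.9% in the cannabis group, against 2.57% and 2.31% from counting.

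**Figure D2:**
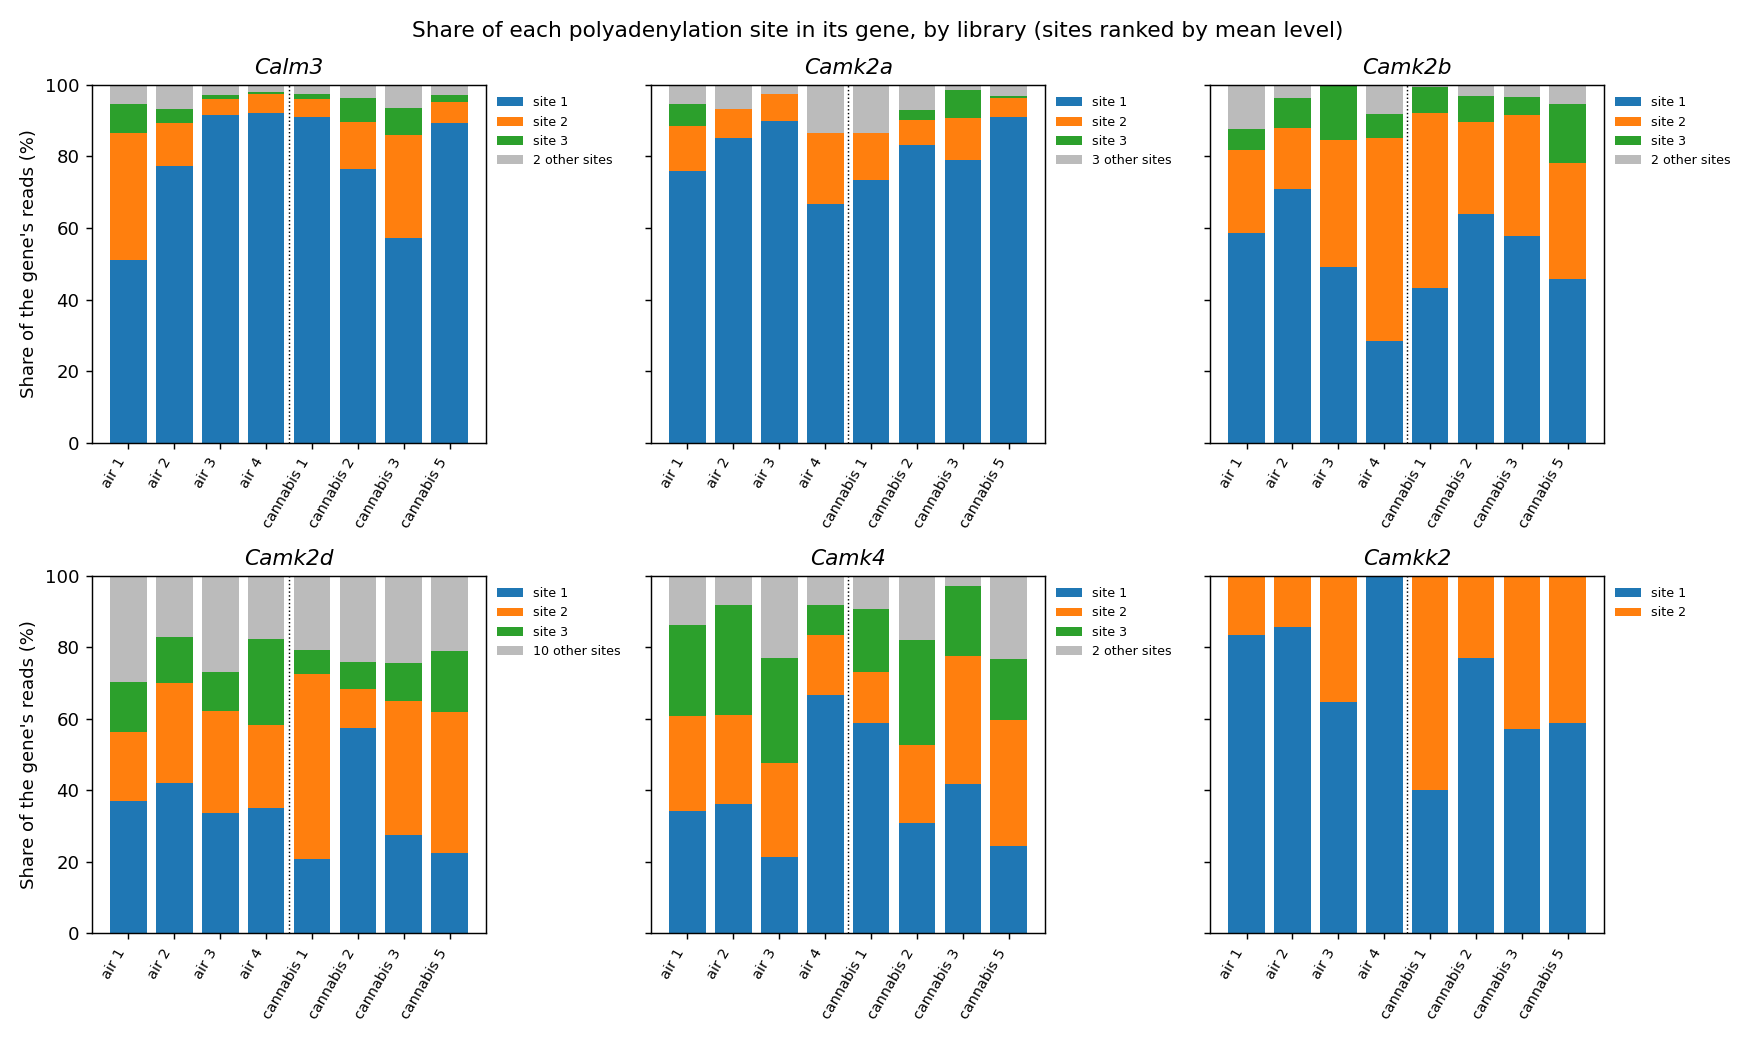
Share of a gene's reads (percent) at site 1 (blue), site 2 (orange), site 3 (green) and the remaining sites together (grey), 1 bar per library, for the 6 genes with more than 1 site. Controls stand left of the dotted line and cannabis libraries right of it. Site 1 of Calm3 runs from 51.1% to 92.2% among the controls alone, and the leading site of Camk2d differs among the cannabis libraries.

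Camk2d had no dominant end. Site 1 held 37.1%, 42.0%, 33.6% and 35.2% of the gene's reads in air controls 1 to 4 and 20.9%, 57.3%, 27.5% and 22.4% in cannabis 1, 2, 3 and 5. The controls lay close together, 3 cannabis libraries lay below them and cannabis 2 lay above them. Site 2 did the opposite, with 19.1%, 27.8%, 28.7% and 23.1% in the controls and 51.7%, 11%, 37.6% and 39.5% in cannabis 1, 2, 3 and 5. Site 1 led in all 4 controls and in cannabis 2, and site 2 led in the other 3 cannabis libraries.

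The mean share of Camk2d site 1 was 37.0% ± 3.68 in the controls and 32.0% ± 17.1 in the cannabis group (SD, n = 4 each; exact two-sided permutation test, p = 0.657), and that of site 2 was 24.7% ± 4.47 and 35.0% ± 17.1 (exact permutation, p = 0.314). The usage of site 1, its log2 ratio to the gene's other sites, differed by −0.39 (SE 0.62) and that of site 2 by 0.56 (SE 0.67). The size of the difference depended on cannabis 2, the library that went the other way. Each library was left out in turn. Without cannabis 2, site 1 was lower in the 3 remaining cannabis libraries than in every control, with a difference of −13.4 percentage points (exact two-sided permutation p = 0.0286, the smallest that 4 against 3 libraries allow). The share of all sites without overlap was not counted for this setting, which leaves out the library that disagreed. In limma no Camk2d site passed P under 0.05 for usage in this setting. Without cannabis 2, the level of site 2 had a log2 fold change of 0.97, which passed P under 0.05 and not P under 0.01 in limma, with an adjusted P of 1.00. Of all 98356 sites, 3420 had P under 0.05 in this setting. Camk2d site 3 held 15.6% ± 5.93 in the controls and 10.4% ± 4.77 in the cannabis group (SD, n = 4 each; exact permutation, p = 0.229).

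Camk2b was split mainly between 2 ends. Site 1 held 58.5%, 71.0%, 49.0% and 28.4% of the reads in air controls 1 to 4 and 43.3%, 63.8%, 57.6% and 45.8% in cannabis 1, 2, 3 and 5. Site 2 held 23.4%, 16.8%, 35.5% and 56.8% in the controls and 48.8%, 25.7%, 34.0% and 32.3% in cannabis 1, 2, 3 and 5. Site 2 led only in air control 4 and cannabis 1, 1 library of each group. The mean share of site 1 was 51.7% ± 18.0 and 52.7% ± 9.73 (SD, n = 4 each; exact permutation, p = 0.943). Camk2b site 3 held 4.86% to 16.7% of the reads over all libraries.

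Camk2a, in contrast to its family members, kept the same leading end in every library. Its site 1 held 76.0%, 85.1%, 90.0% and 66.7% of the reads in the controls and 73.3%, 83.2%, 79.1% and 91.1% in cannabis 1, 2, 3 and 5 (exact permutation, p = 0.743). The lowest share, in air control 4, rested on 45 reads and had a 95% Wilson interval of 52.1% to 78.6%. Site 2 held 5.36% to 20%, and site 3 had no read in 4 of the 8 libraries. For comparison, the leading site of genes with more than 1 site held a median of 63.3% of the gene (quartiles 47.3% and 82.4%). Pooled over libraries, site 1 held 83.3% of Camk2a, 75.5% of Calm3, 54.5% of Camk2b and 35.7% of Camk2d.

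Camk4 was spread over 3 ends. Site 1 held 34.2%, 36.1%, 21.3% and 66.7% of the reads in the controls and 58.8%, 30.8%, 41.8% and 24.4% in cannabis 1, 2, 3 and 5, so that air control 4 and cannabis 1 stood highest. Site 3 led in air control 3 and site 2 in cannabis 5. The means of site 1 were 39.6% ± 19.2 and 38.9% ± 15.1 (SD, n = 4 each; exact permutation, p = 0.943). Sites 2 and 3 held 25.5% and 22.9% of all Camk4 reads.

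Camkk2 had the largest difference between groups in the share of its leading end, on the fewest reads. Site 1 held 83.3%, 85.7%, 64.7% and 100% of the reads in the controls and 40.0%, 76.9%, 57.1% and 58.8% in cannabis 1, 2, 3 and 5. The groups overlapped, since cannabis 2 lay above air control 3. The means were 83.4% ± 14.5 and 58.2% ± 15.1 (SD, n = 4 each), a difference of −25.2 percentage points (exact two-sided permutation test, p = 0.0571). The usage of site 1 differed by −1.07 on the log2 scale (SE 0.59). Without cannabis 2 it differed by −1.38, past P under 0.05 and not P under 0.01 in limma, with an adjusted P of 1.00. Of all 57287 sites tested for usage, 2043 had P under 0.05 in that setting. Site 2, the only other end, had 1.46, 1.20, 4.03 and 0 normalized counts in the controls and 3.73, 1.99, 2.95 and 5.38 in cannabis 1, 2, 3 and 5 (exact permutation, p = 0.171). The shares rested on 1 to 17 reads per library, and the 100% in air control 4 was 1 read of 1, under the 3 reads taken as detectable. The 95% Wilson interval was 55.2% to 95.3% in air control 1 and 11.8% to 76.9% in cannabis 1.

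Over the 37 sites, 0 passed P under 0.01, against 0.381% of all sites, and 0 had P under 0.05 in the limma fit, against 3.03%. At that level edgeR had 1 site (Calm2) and DESeq2 had 0. None had an adjusted P under 0.1, against 0.00102% of all sites. Usage was tested for the 36 sites of the 6 genes with more than 1 site, of which 0 passed P under 0.01, against 0.466% of all such sites, and 0 had P under 0.05, against 3.27%. An adjusted P under 0.1 was reached by none of these 36 and by 0.0% of all sites tested for usage. The groups overlapped in every member, for levels (against 2.0% of all sites with no overlap) and for shares (against 2.01%). The log2 fold changes of level were positive for 21 sites and negative for 16, with a median of 0.08 beside 0.01 over all sites. Those of usage were positive for 15 and negative for 21, with a median of −0.09 beside −0.002 over all sites.

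**Figure D3:**
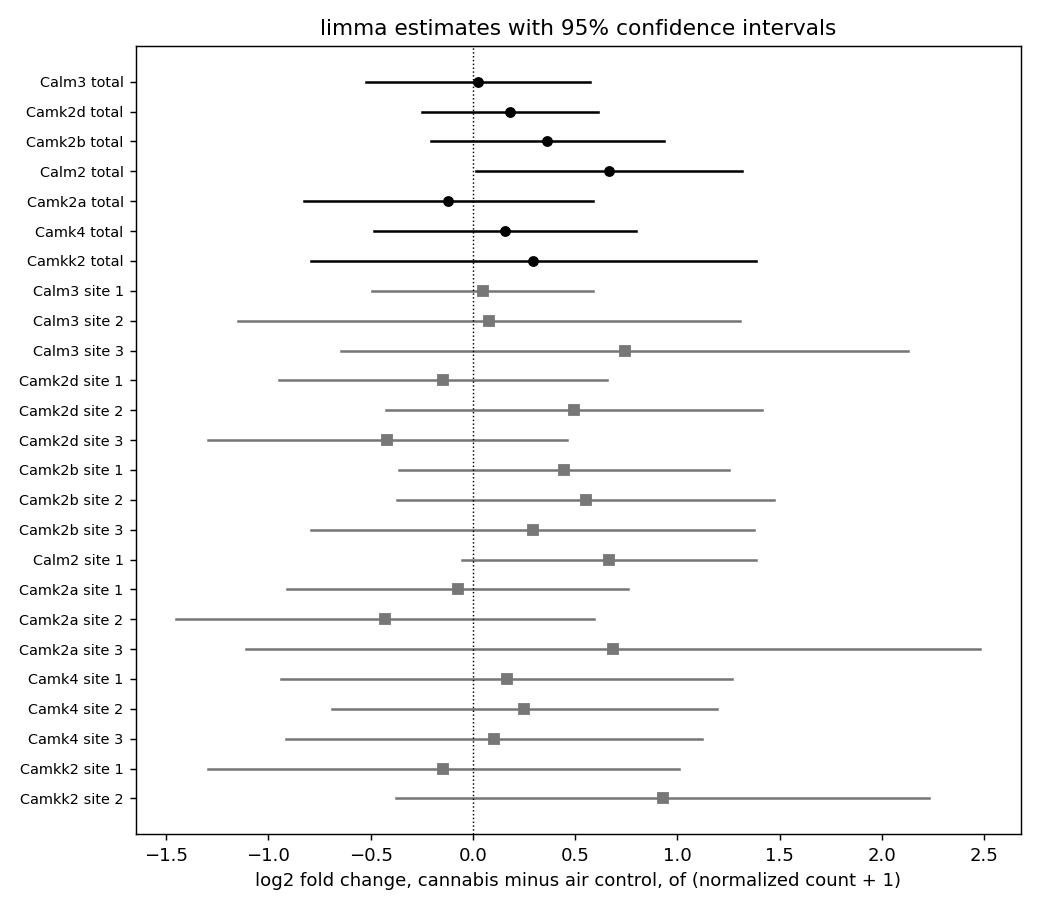
Log2 fold change, cannabis minus air, of the 7 gene totals (black circles) and of the 3 highest sites of each gene (grey squares), with 95% confidence intervals from limma. Each interval but that of the Calm2 total (0.01 to 1.32) includes 0.

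The balance of Calm3 and Calm2, which encode the same protein, varied between libraries of both groups. The ratio of Calm3 to Calm2 ends was 22.4, 13.4, 7.87 and 23.5 in air controls 1 to 4 and 23.8, 6.61, 6.23 and 9.47 in cannabis 1, 2, 3 and 5. Air controls 1 and 4 and cannabis 1 stood high and the groups overlapped. The means were 16.8 ± 7.48 and 11.5 ± 8.30 (SD, n = 4 each; exact two-sided permutation test, p = 0.343). How reads matching near-identical copies of calmodulin sequence were assigned is not given in the sources used here, so the split between these genes is uncertain to that extent.

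Within CaM kinase II, Camk2a supplied 32.2%, 20.7%, 25.8% and 21.4% of the summed ends of the 3 genes in air controls 1 to 4 and 11%, 15.4%, 24.4% and 35.1% in cannabis 1, 2, 3 and 5. The controls were closer together than the cannabis libraries, which held both the lowest and the highest share. The mean was 25% ± 5.27 against 21.5% ± 10.6 (SD, n = 4 each; exact permutation, p = 0.571). Camk2d supplied 42.8% ± 5.09 and 42.1% ± 7.60, and Camk2b 32.2% ± 4.89 and 36.4% ± 9.66. The ratio of Camk2a to Camk2b ends, the alpha to beta balance in RNA and not in protein, ran from 0.274 in cannabis 1 to 1.22 in air control 1.

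**Figure D4:**
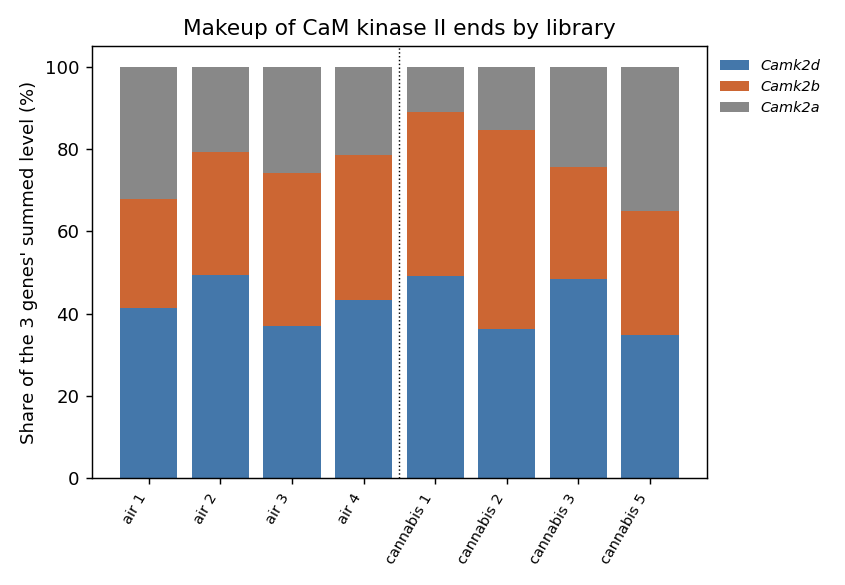
Share of Camk2d (blue), Camk2b (orange) and Camk2a (grey) in the summed level of the 3 CaM kinase II genes, in percent, 1 bar per library with controls left of the dotted line. The Camk2a share spans 20.7% to 32.2% in the controls and 11% to 35.1% in the cannabis group.

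Air control 4 and cannabis 1 recur in these descriptions. Both had a higher ratio of Calm3 to Calm2 ends than any other library, the Camk2b end at site 2 in the lead and a high share of Camk4 site 1. Over all sites, their deviations from their own group means had the highest correlation of the 16 pairs of a control and a cannabis library (r = 0.469, a description across sites, which are not independent). They were also the libraries with the fewest reads and the most sites without a read. Air control 2, which did not share these traits, had nearly as few reads as cannabis 1 (1941129 against 1919709). Its share of sites without a read was 10.3%. The part of these properties in the values above was not tested.

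Other genes of calcium and calmodulin signaling were read list by list. Of 7 measured other CaM kinase genes and inhibitors, 0 had a total with P under 0.01 or under 0.05 in either direction. The most abundant was Camkv, which encodes a kinase-like protein without catalytic activity, with 516 ± 61.4 normalized counts in the controls and 573 ± 147 in the cannabis group (SD, n = 4 each; log2 fold change 0.12, SE 0.22). The same counts of 0 held for 8 genes of calcineurin, the calmodulin-dependent phosphatase, and its regulators, led by Ppp3ca, its catalytic subunit (log2 fold change 0.18, SE 0.26). They also held for 4 calmodulin-binding buffer proteins, led by Gap43 (0.14 on the log2 scale, SE 0.20). Of 6 measured genes of CREB and its coactivators, led by the acetyltransferase gene Crebbp (−0.10 on the log2 scale, SE 0.23), again 0 passed either level, and of 8 other calmodulin-dependent enzymes, led by the phosphodiesterase gene Pde1b (−0.16 on the log2 scale, SE 0.20), 0 passed. The median log2 fold changes of the 5 lists were 0.12, 0.15, 0.01, −0.03 and −0.03, beside 0.05 over all symbols.

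Some marker genes of brain regions had P under 0.01 in limma. Among these only Slc6a3 passed an adjusted P under 0.1, at 0.022. The limma adjusted P was 0.107 for En1, 0.557 for Th and 0.999 for Avp and Oxt. The summed level of 9 hypothalamic markers was 3245 to 5592 normalized counts in the controls and 7348 to 9421 in the cannabis group, with 2 of the 9, Avp and Oxt, past P under 0.01. The other 7 summed to 1402 to 1748 and 1710 to 2395, and these ranges overlapped. Of 4 markers of midbrain dopamine neurons, Slc6a3, Th and En1 had lower totals in the cannabis group at P under 0.01, and the sum of all 4 was 565 to 771 in the controls and 96.9 to 253 in the cannabis group. The sum of 3 measured endothelial markers was 81.1 to 88.0 and 93.0 to 115.5, with 0 genes past P under 0.05. Most of it was Flt1 (71.0 ± 7.32 and 95.7 ± 12.7, SD, n = 4 each), whose groups overlapped. The other 2 summed to 14.7 ± 4.30 and 10.6 ± 5.77 (SD, n = 4 each). Their mean sum was thus lower in the cannabis group, and the ranges overlapped. The sums of the 9, 4 and 3 markers each had groups that did not overlap, against 1.98% of single symbols. Avp, Oxt, Slc6a3, Th and En1 are in the study's own list of changed sites from these same libraries. Sums that hold them are therefore no independent test of a difference. The neuronal marker sum was 1515 to 2427 in the controls and 1378 to 2312 in the cannabis group. The sums of the marker lists for cortex and hippocampus, thalamus, striatum, oligodendrocytes, astrocytes, microglia, and pituitary and choroid plexus overlapped as well, with 0 genes past P under 0.05 in each. Of the cortical markers, 2 of 6 were measured, and Slc17a7 was not among them. The part of tissue makeup in the member values was not tested, and in bulk tissue fewer cells of a type and less RNA per cell cannot be told apart.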

How the data were processed

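The authors filtered WTTS-Seq reads, trimmed their leading Ts, mapped them with TMAP to Rnor_6.0 (Rnor 6.0), merged neighboring read ends to define APA sites, dropped those under 16 reads in all, named genes with Cuffcompare and divided reads by a DESeq2 size factor. The deposited values are this signal, a normalized count per site and library, without coordinates. Every value was a whole number of reads to within 0.01 read (100% of values), so the reads were recovered.

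Gene totals are sums over sites of a symbol. limma 3.58.1 (R 4.3.3, mean-variance trend, no covariate) was fitted to log2(normalized count + 1) over all 98356 sites, all 18003 symbols, and for usage to log2((site + 1)/(other sites + 1)) over 57287 sites, with Benjamini-Hochberg adjustment. Fold changes on this scale understate those of low sites. It called 375 sites and 50 symbols at P under 0.01, edgeR 4.0.16 (quasi-likelihood) on recovered reads 517 and 54, and DESeq2 1.42.0 310 and 76. The limma fit was tested on simulated data, with 200 changed features, a log2 change of 2 and a dispersion of 0.2. The changed features were drawn from well-read ones. Many member sites were thinly read and their estimated changes were smaller, so the simulation does not show how often such changes would be found. Single values had exact two-sided permutation tests of the difference of group means, without log transformation (smallest p 0.0286 for 4 against 4). Shares had 95% Wilson intervals, with 3 reads taken as the smallest detectable number. Other steps ran in Python 3.11.15 with scipy 1.17.1, pandas 2.3.3, numpy 2.4.6 and matplotlib 3.10.9.

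Groups and numbers came from sample titles. The series' design gives 4 rats per group, the methods a cohort of 8 per group, and no source used here says how libraries and rats of that cohort correspond, so p-values measure the spread between these libraries. Members, gene lists and tests were chosen with earlier results of these data known. The text names every member total, the 3 highest sites of each member, any member site with P under 0.01, and of each pathway list the genes with P under 0.01 and the most abundant one; markers and other features were named after their values were seen. Alternatives were a pseudocount of 0.5 or 5, only features whose mean reached 10, the replicate block, each library left out, edgeR, DESeq2, equal library totals and no trend. A threshold of 0.05 was added after seeing the data. A gene of the further lists is not reported here.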

Additional observations from a re-analysis of the deposited data

Results flagged for a closer look

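In 84 groups of 4 libraries (levels and shares of the named member sites and totals in each group), 8 values stood apart from the other 3 by Dixon's criterion at 95%, which chance gives in about 1 group of 20. Calm3 site 1 was at 1891 normalized counts in air control 4, against 1156 in the nearest control. Calm3 site 2 was at 804 normalized counts in air control 1, against 164 in the nearest control. Camk2a site 3 was at 9.50 normalized counts in air control 1, where it held 6.25% of the gene, and had no read in the other 3 controls. Camk2b site 1 was at 190.0 normalized counts in cannabis 2, against 88.2 in the nearest cannabis library. Camk2b site 3 was at 29.5 normalized counts in air control 3, against 10.8 in the nearest control. Camkk2 site 1 was at 1.99 normalized counts in air control 4, which is 1 read, against 7.18 in the nearest control. Camk4 site 2 held 16.7% of its gene in air control 4, against 25% in the nearest control.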

How the results depend on the processing

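The numbers of member sites and of usage tests called at P under 0.01 were 0 under every alternative run, each library left out included. The number of member totals called was 0, except 1 without cannabis replicate 1 (range 0 to 1 over libraries left out) and 1 at P under 0.05, Calm2 in both. Its log2 fold change was 0.49 to 0.93 over libraries left out, its limma P 0.0047 to 0.143 over all alternatives. The other totals had no call. Over all symbols, the calls rose from 50 to 90 without cannabis replicate 1. Over libraries left out, Calm3 ran from −0.14 to 0.18, Camk2a from −0.36 to 0.17, Camk2b from 0.15 to 0.50, Camk2d from 0.12 to 0.30, Camk4 from −0.044 to 0.31 and Camkk2 from −0.16 to 0.53 on the log2 scale. Calm3 also turned to −0.043 with edgeR and −0.049 with DESeq2, and Camkk2 to −0.35 with the replicate block. The cause was not tested.

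The difference in the share of the leading site, in percentage points, ran over libraries left out from −8.57 to 7.49 for Calm3, −2.04 to 5.75 for Camk2a, −6.84 to 7.38 for Camk2b, −13.4 to −1.23 for Camk2d, −7.25 to 8.41 for Camk4 and −31.5 to −19.1 for Camkk2. It turned to −0.74 for Camk2b with a mean of at least 10. With the replicate block (the 3 shared numbers) it turned to −5.18 for Camk2a, −4.57 for Camk2b and 13.3 for Camk4. Camkk2 has no value with a mean of at least 10. Libraries of the same number correlated by −0.230 to 0.080 in their deviations from the group means, so the numbers were not read as pairs, and the block took the calls over all symbols from 50 to 24 and over all sites from 375 to 229. Of all symbols called, 18 were higher and 32 lower with limma, 12 and 42 with edgeR, 12 and 64 with DESeq2, 51 and 47 without a trend and 49 and 35 without air control replicate 3. Of all sites called, 121 were higher and 254 lower with limma, 66 and 244 with DESeq2, 206 and 238 without a trend and 141 and 90 without air control replicate 1. Camkk2, with 79 reads, and the 18 sites with a mean under 10 are limited by depth.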
